A study of Mus musculus with 11 samples.

Results

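The 8 Nemo-deficient livers of this study were analysed together as a single group against the 3 wild-type (WT) livers, out of 11 arrays in all. They are all the samples whose titles name a Nemo knockout: 3 livers lacked Nemo in hepatocytes (Nemo KO), 2 in addition lacked TRAIL (Nemo/TRAIL dKO), and 3 in addition lacked TNFR1 (Nemo/TNFR1 dKO). All mice, WT included, were C57/BL6 males aged 8 to 9 weeks and were fed chow. Nemo was removed through loxP sites in its gene, and the sources used here name neither the promoter that drove the recombinase nor whether WT mice carried the floxed gene. The TRAIL and TNFR1 knockouts were constitutive, so every cell type of the double knockouts lacked them. Total RNA of whole liver was hybridised to Affymetrix mouse whole-transcript arrays, and 35556 probe sets were read out on the log2 scale. The question was which changes all Nemo-deficient genotypes share, including changes too small for any single genotype to reveal.

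Nemo, encoded by Ikbkg on the X chromosome, is the subunit through which the IκB kinase complex is switched on, and that complex activates the transcription factor NF-κB. In hepatocytes NF-κB limits cell death induced by members of the tumour necrosis factor family, and livers whose hepatocytes lack Nemo are known to develop chronic hepatitis with cell death, compensatory proliferation and fibrosis. TRAIL (Tnfsf10) is a death ligand of that family, and TNFR1 (Tnfrsf1a) is the main receptor through which tumour necrosis factor can trigger cell death.

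The arrays resembled each other closely, with correlations between 0.9794 and 0.9937, and each of them carried the hepatocyte signal that the liver label implies. Albumin (Alb) lay between 13.81 and 13.93 and transthyretin (Ttr) between 13.42 and 13.57 in all 11 arrays. WT replicate 3 stood apart in genes of the pancreatic acinar cell: relative to the WT mean, 20 measured acinar markers averaged 3.41 log2 units in that array, and every other array lay between -1.9 and -1.67. Carboxypeptidase B1 (Cpb1) reached 11.80 in WT replicate 3 and at most 4.28 elsewhere. No acinar marker was called in the comparison of all 11 arrays, and values without WT replicate 3 stand beside the results that it changes. The array names carry a code, one for Nemo KO and WT together and another for each double knockout. If the code marks a batch, batch and genotype cannot be told apart for the double knockouts, and only Nemo KO can be set against WT within a code.

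The targeted gene itself gave a small signal. Ikbkg ranged between 8.12 and 8.56, with a median of 8.30, in Nemo-deficient livers, against 8.65, 8.73 and 8.60 in WT livers. The groups did not overlap. Ikbkg fell by 0.36 on the log2 scale (SE 0.08, adjusted p = 0.0117 by limma), a call that was lost without WT replicate 2 (adjusted p = 0.0601). It was also lost when Nemo KO alone was set against WT within the shared array code, a fit with fewer arrays. In bulk tissue fewer cells of a type and less RNA per cell cannot be told apart, and cells other than hepatocytes keep the gene. Whether the probes lie in the deleted part is not stated in the labels. Tnfsf10 (difference -0.33 ± 0.17, adjusted p = 0.228) and Tnfrsf1a (0.26 ± 0.11, adjusted p = 0.131; limma, SE) did not pass the test in the pooled comparison, in which only some of the mice lack them.

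Pooling gave a large response. Of 35556 probe sets 5369 (15.1%) differed between Nemo-deficient and WT livers at an adjusted p below 0.05 in a limma fit with Benjamini-Hochberg adjustment over all probe sets (called below), 3015 of them higher and 2354 lower. Counted as genes (1 probe set for each of 19938 genes), 2327 (11.7%) were higher and 1595 (8%) lower in Nemo-deficient livers, around a median difference of -0.04 over all genes. The large changes ran almost wholly one way: of the 477 called genes that changed at least 2-fold, 425 were higher and 52 lower. Among the 2613 called genes that changed less than 1.5-fold, 1268 were higher and 1345 lower. Counted as probe sets, the share of calls that were higher was 56.2%. It depended on scaling, since it was 51.9% after quantile normalization and 45.8% after centring each array on its median. Without WT replicate 3, 3360 genes were called, 2933 of the 3922 among them, and 0 turned direction. Nothing in the labels says that the livers of a genotype came from separate litters, so the p-values reflect no more than how these particular arrays spread, which may be technical. Within the shared array code, Nemo KO alone differed from WT in 2114 genes, which included 1960 of the 3922.

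The 3922 genes fell into classes by what the single genotypes showed on their own. A core of 1535 genes (7.7% of all genes) was called in the pooled comparison and in the same direction in each of the 3 genotypes against WT, 1135 of them higher and 400 lower. A further 1033 genes (5.18%) were called in the pooled comparison and in none of the single ones. Of these pooled-only genes 443 were higher and 590 lower. Over all 19938 genes, called or not, 7926 lay above WT and 12012 below, so the background leaned to lower values as well. The remaining called genes passed in 1 (776) or 2 (578) of the single comparisons. All comparisons use the same 3 WT arrays, so these counts are a description. The groups did not overlap in any of the 1535 core genes and in 664 of the 1033 pooled-only genes. Over all genes, groups that did not overlap were found with Nemo-deficient livers higher in 10.9% and lower in 8.66%.

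The definitions fix that core genes are larger and more firmly called, since they had to pass every single comparison and pooled-only genes had to fail each, so the sizes that follow are a description. The median absolute difference was 0.70 on the log2 scale (1.62-fold) for core genes and 0.29 (1.22-fold) for pooled-only genes, and 987 of the pooled-only genes changed less than 1.5-fold. Each core gene was still called in the pooled comparison when any one array was left out, except that 1534 of 1535 were called without WT replicate 3. Membership of the core leaned on the 2 Nemo/TRAIL dKO arrays, since 552 of the 1535 genes still passed in every genotype without Nemo/TRAIL dKO replicate 1 and 916 without its replicate 2. Pooled-only calls leaned on the WT arrays: 307, 254 and 452 of the 1033 were still called without WT replicate 1, 2 and 3. Leaving out a Nemo-deficient array kept between 619 (without Nemo KO replicate 3) and 923 (without Nemo/TNFR1 dKO replicate 1). The plot of sizes and of calls kept shows both contrasts.

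**Figure D1:**
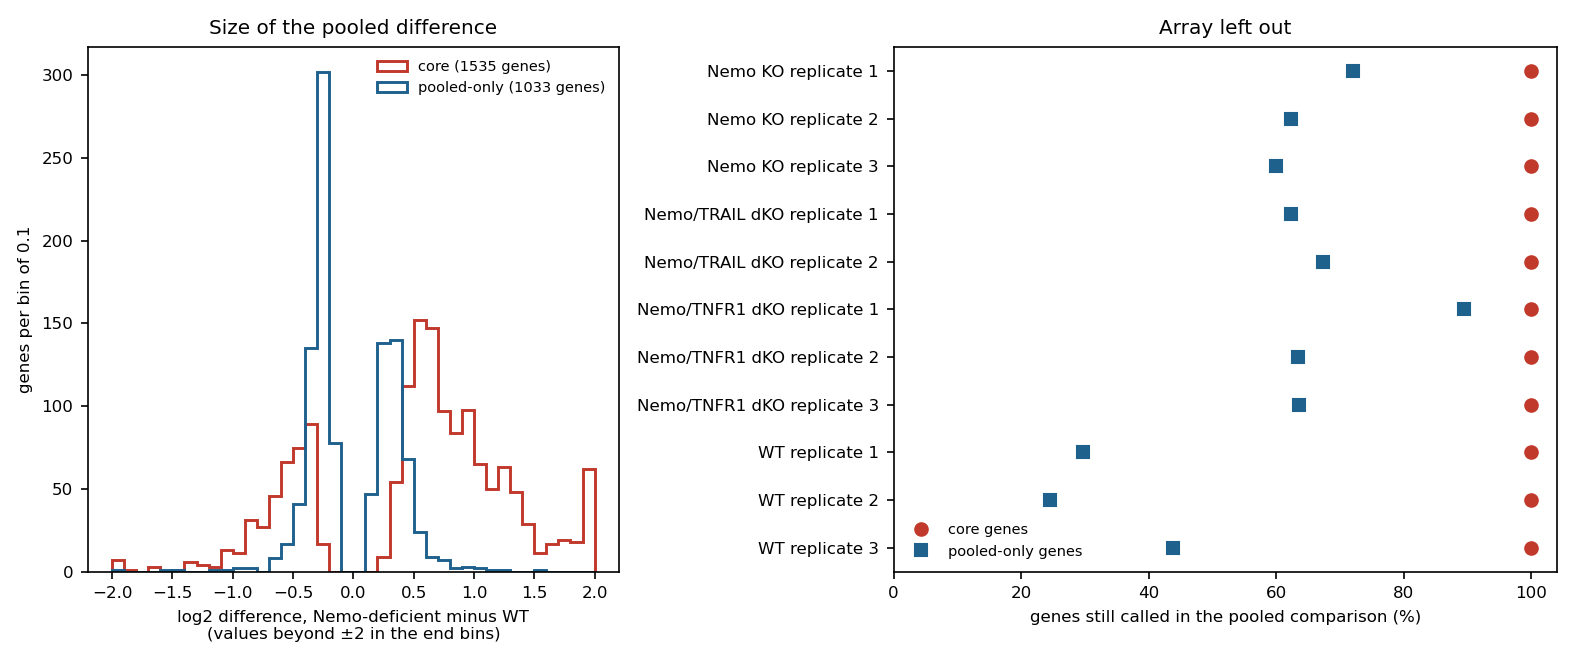
Left, number of genes per bin of 0.1 by log2 difference, Nemo-deficient minus WT, for 1535 core and 1033 pooled-only genes. Right, percent of each class still called in the pooled comparison when the named array is left out: core genes stay near the right edge for every array, while pooled-only genes lose most calls when a WT array is left out.

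The genotypes within the group differed from each other in few genes. A moderated F test over the means of the 3 Nemo-deficient genotypes, which uses no WT mean, called 17 of 35556 probe sets (0.0478%). Of these, 6 represent a gene here. The rest carry no symbol or several, or are not the highest-mean probe set of their gene. In all, 1999 probe sets had an unadjusted p below 0.05. A p that misses the threshold does not show equal means in groups of 2 and 3. Only 1 of the 6 was also a core gene: Trem2, a lipid-sensing receptor of macrophages, lay highest in Nemo/TNFR1 dKO livers (8.01, 8.23 and 8.15), followed by Nemo/TRAIL dKO (7.82 and 7.73) and Nemo KO livers (7.28, 7.45 and 7.43), against 6.87, 6.88 and 7.0 in WT livers (F test adjusted p = 0.038, limma). It was above WT in every genotype. In each of the other 5 a single double knockout stood apart. Gfra2, a receptor of the GDNF family, was at 7.08 and 6.91 in Nemo/TRAIL dKO and between 7.79 and 8.28 in the other Nemo-deficient livers, against 7.21 to 7.36 in WT livers (adjusted p = 0.000839). Cyp2c39, a cytochrome P450, reached 10.59 and 11.92 in Nemo/TRAIL dKO and at most 8.36 elsewhere in the group, against 6.25 to 7.25 in WT livers (adjusted p = 0.0346). Orm2, an acute-phase glycoprotein, stayed at 8.9 to 9.44 in Nemo/TNFR1 dKO and was at least 10.56 in the other Nemo-deficient livers, against 8.85 to 9.0 in WT livers (adjusted p = 0.0187). In Nemo/TNFR1 dKO livers Clec2h was also lowest (5.0 to 5.79) and Alad, an enzyme of haem synthesis, highest (12.39 to 12.55), with adjusted p = 0.038 and 0.0397.

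Surface and cornified-envelope proteins, macrophage products and mitotic genes were among the 12 genes that rose most in every genotype. Ly6d, a small surface protein of the Ly6 family, ranged between 9.5 and 11.76 (median 11.11) in Nemo-deficient livers, against 5.86, 6.81 and 6.46 in WT livers. Sprr1a, a small proline-rich protein of the cornified envelope, ranged between 9.3 and 10.83 (median 10.54), against 6.20, 6.07 and 6.49 in WT livers. For both genes the lowest Nemo-deficient liver lay clearly above the highest WT liver. The differences were 4.54 ± 0.42 for Ly6d and 4.11 ± 0.27 for Sprr1a (SE; adjusted p = 4.88e-05 and 9.64e-06, limma). Gpnmb, a glycoprotein of lipid-laden macrophages, ranged between 8.71 and 9.86 (median 9.18) in Nemo-deficient livers, against 5.3, 5.65 and 5.64 in WT livers, a difference of 3.65 ± 0.23. The macrophage elastase Mmp12 rose by 3.66 ± 0.21 and the transcription factor gene Mybl1 by 3.80 ± 0.41. D17H6S56E-5, for which no role is given here, rose by 3.95 ± 0.30. The 6 other genes of this rank were Ccnb2, Ccna2, Knstrn, Plk1, Hmmr and Ect2, which act in mitosis or cell division, with differences between 2.78 and 3.28.

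Among the 12 genes that fell most in every genotype were enzymes, transporters and secreted proteins. Hsd3b5, a steroid reductase made mainly in male mouse liver, ranged between 5.13 and 9.6 (median 7.53) in Nemo-deficient livers, against 12, 11.85 and 12.1 in WT livers. It was lower in all 8 livers, although they varied widely among themselves (SD 1.39, n = 8, against 0.13 in WT, n = 3). The difference was -4.67 ± 0.74 (adjusted p = 0.00125, limma). Serpina12, a secreted serine protease inhibitor, ranged between 4.81 and 6.28 (median 5.43), against 8.2, 7.77 and 8.55 in WT livers, and fell by 2.59 ± 0.30. Slc13a2, a transporter of dicarboxylates, stayed between 4.5 and 4.95 in Nemo-deficient livers, against 7.17, 7.12 and 6.33 in WT livers, and fell by 2.11 ± 0.16. The others were Pcp4l1 (-2.05), the sulfotransferase Sult5a1 (-2.04), Hnf4aos (-1.9), a transcript antisense to the hepatocyte regulator Hnf4a, Slc15a5 (-1.69), the major urinary protein gene Mup21 (-1.69), Cyp2c37 (-1.67), the organic anion transporter Slco1a1 (-1.45), Pdilt (-1.39) and the carboxylesterase Ces1e (-1.38). Mup21, Cyp2c37 and Ces1e have close paralogs, and cross-hybridisation was not tested. Each of the 12 genes was still called without any one array.

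**Figure D2:**
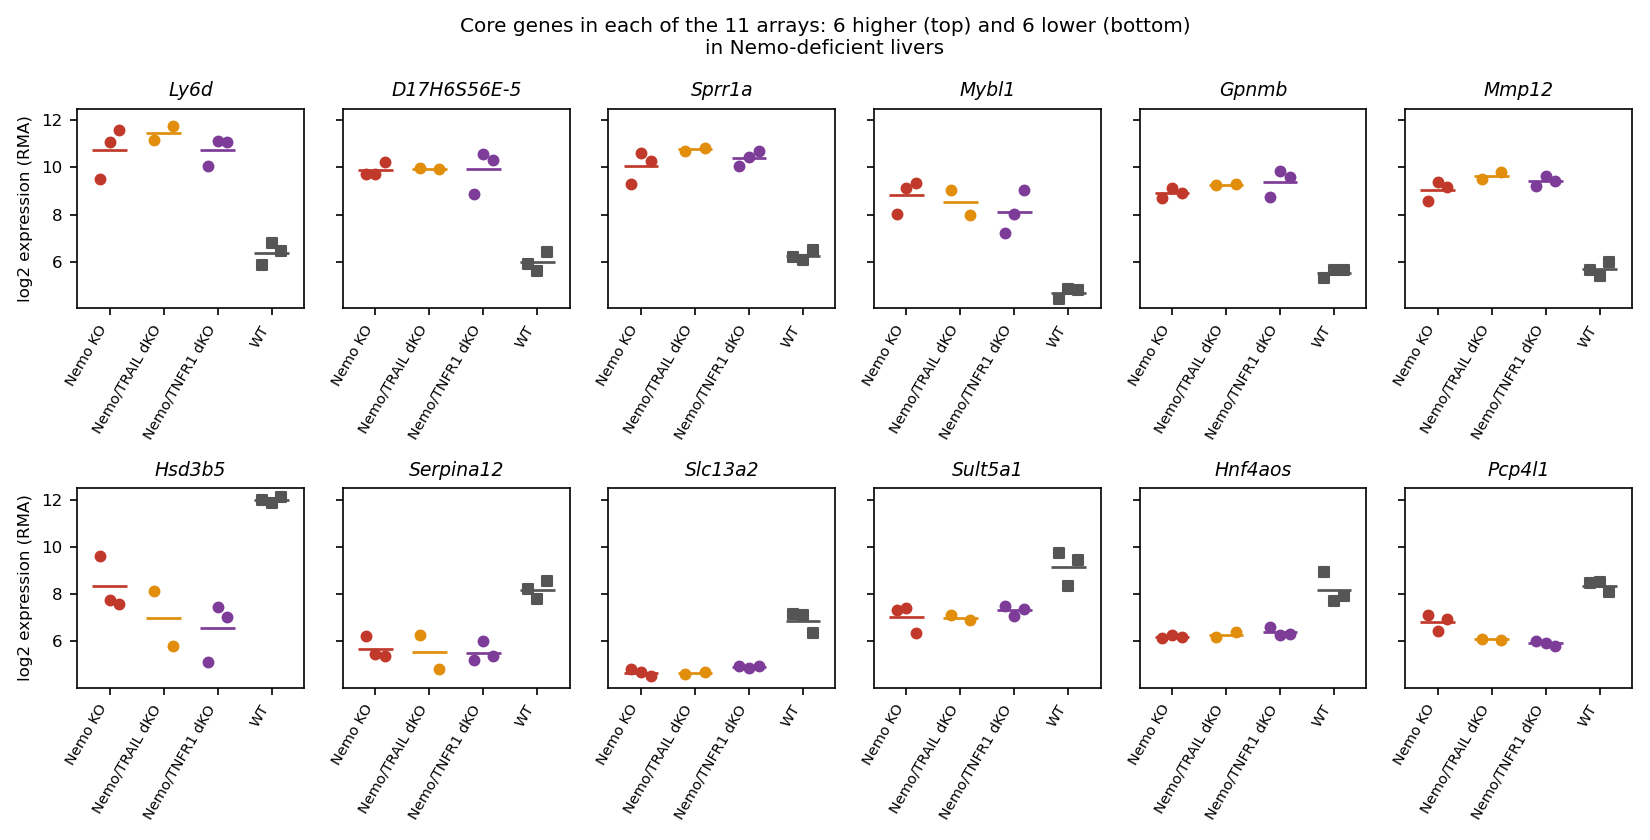
Log2 expression (RMA) of 6 core genes higher (top) and 6 lower (bottom) in Nemo-deficient livers. Each circle or square is 1 array and each bar a genotype mean. In every panel all 8 Nemo-deficient arrays lie on one side of the 3 WT arrays, as for Gpnmb (8.71 to 9.86 against 5.3 to 5.65) and Hsd3b5 (5.13 to 9.6 against 11.85 to 12.1).

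Some core genes moved by nearly the same amount in each genotype. Epdr1 exceeded WT by 1.75 (Nemo KO), 1.74 (with TRAIL also lost) and 1.74 (with TNFR1 also lost). In the same order, for Plat, the tissue plasminogen activator, the values were 1.64, 1.66 and 1.65, and for Axl, a receptor tyrosine kinase that binds apoptotic cells through its ligand, 1.22, 1.20 and 1.21. The mitotic spindle gene Nusap1 (2.21, 2.21 and 2.24) and the complement gene C1qc (1.03, 1.03 and 1.04), whose product is made by macrophages, behaved likewise. Among the genes that fell, Mfsd4b1 (-1.08, -1.08 and -1.05), Fn3k (-1.08, -1.12 and -1.04), Ces3b (-1.17, -1.22 and -1.26) and Ces4a (-1.34, -1.24 and -1.23) were closest to a common value. Since these genes were chosen for that likeness, their agreement is a description. The single differences share the WT arrays.

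Of the gene lists, mitosis held the most core genes (46). Promoters of 2 mitosis genes and 1 DNA replication gene are shown because each holds short elements that many genes of its list share: the cell cycle homology region (CHR, letters TTTGAA) and the CCAAT box (letters CCAAT) that are known to serve genes of mitosis, and the E2F element (letters TTCCCGC) known to serve genes of DNA replication. The windows are those of RefSeq on build GRCm38.p6, from 250 bases before to 50 bases after the gene start, written 5′ to 3′ on the gene's strand, with the elements on either strand in capitals. Ccnb2 encodes cyclin B2 and lies at chr9:70421505-70421804 (minus strand), Plk1 encodes a mitotic kinase and lies at chr7:122159185-122159484 (plus strand), and Mcm3 encodes a subunit of the replicative helicase and lies at chr1:20820263-20820562 (minus strand).
Ccnb2: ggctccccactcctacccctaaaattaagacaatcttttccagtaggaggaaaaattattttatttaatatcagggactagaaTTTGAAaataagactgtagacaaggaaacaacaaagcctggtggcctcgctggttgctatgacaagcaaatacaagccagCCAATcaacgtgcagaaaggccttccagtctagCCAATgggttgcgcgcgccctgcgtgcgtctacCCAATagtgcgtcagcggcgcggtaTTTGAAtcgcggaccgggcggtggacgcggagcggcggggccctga
Plk1: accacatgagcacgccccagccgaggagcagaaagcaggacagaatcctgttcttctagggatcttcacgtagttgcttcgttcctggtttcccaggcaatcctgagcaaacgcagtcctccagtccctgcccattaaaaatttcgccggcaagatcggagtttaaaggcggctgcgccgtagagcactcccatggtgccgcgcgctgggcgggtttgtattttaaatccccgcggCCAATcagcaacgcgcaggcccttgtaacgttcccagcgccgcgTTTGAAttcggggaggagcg
Mcm3: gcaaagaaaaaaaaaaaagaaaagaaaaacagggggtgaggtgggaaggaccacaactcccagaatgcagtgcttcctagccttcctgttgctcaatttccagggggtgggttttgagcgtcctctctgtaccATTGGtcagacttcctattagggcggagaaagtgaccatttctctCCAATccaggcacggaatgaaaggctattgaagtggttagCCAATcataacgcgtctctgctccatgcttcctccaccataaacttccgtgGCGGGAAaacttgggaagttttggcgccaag
Ccnb2 holds 2 CHR and 3 CCAAT matches, Plk1 holds 1 of each, and Mcm3 holds 3 CCAAT matches and 1 E2F match. Among the mitosis genes with a RefSeq window, 32 of 44 (72.7%) held a CHR match, against 17.3% of all 15563 measured genes that have a window, and 33 of 44 (75%) held CCAAT, against 41.7%. Among DNA replication genes 14 of 30 (46.7%) held the E2F element, against 7.39%, while 3 of 30 (10%) held a CHR match. Over all 888 higher core genes with a window the shares were closer to those of all genes: 19.7% for CHR, 43.1% for CCAAT and 10.2% for E2F. A match is a string of letters and not a measured binding site. Mcm3 averaged 6.95 ± 0.15 in Nemo-deficient livers (SD, n = 8) and 6.12 ± 0.20 in WT livers (SD, n = 3), a rise of 0.83 with adjusted p = 0.00029 by limma.

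Of 54 measured mitosis genes 53 were higher in Nemo-deficient livers and none lower, with a median difference of 1.35, against -0.04 over all genes, and 46 were core genes. Ccnb2 ranged between 9.28 and 10.48 (median 9.68) in Nemo-deficient livers, against 6.10, 6.39 and 6.98 in WT livers. Ccna2, cyclin A2, ranged between 8.16 and 9.46 (median 9.09), against 5.6, 5.36 and 6.52 in WT livers, and Plk1 between 7.75 and 8.92 (median 8.61), against 5.61, 5.47 and 6.09. In none of these genes did the groups overlap, and the differences were 3.28 ± 0.23, 3.12 ± 0.27 and 2.82 ± 0.22 (SE; adjusted p at most 3.37e-05, limma). Only Cks2, which binds cyclin-dependent kinases, did not pass (0.25, adjusted p = 0.0747). Of 37 DNA replication genes 26 were higher, with a median of 0.53. They included Rrm2, a subunit of ribonucleotide reductase (2.1 ± 0.24), and the helicase subunits Mcm6 (2.0 ± 0.22) and Mcm5 (1.23 ± 0.18). A single member, the replication initiation factor Mcm10, was lower: it ranged between 6.71 and 7.17 in Nemo-deficient livers, against 7.74, 7.81 and 7.84 in WT livers (-0.83 ± 0.09, adjusted p = 8.4e-05). Leaving out any one array left 50 to 54 mitosis and 23 to 27 replication genes higher.

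Upstream of division, 10 of 23 G1 cyclins, their kinases, inhibitors and pocket proteins were higher and 1 lower. Cyclin D1 (Ccnd1), which drives entry into the cell cycle, ranged between 10.91 and 11.62 (median 11.53) in Nemo-deficient livers, against 9.07, 8.56 and 8.96 in WT livers, a difference of 2.55 ± 0.16 (adjusted p = 5.71e-06, limma). The pocket proteins, which restrain E2F, split: Rbl1 was higher (1.26 ± 0.14) and Rbl2 lower (-0.54 ± 0.08), each a core gene. Of 27 p53 target genes 15 were higher and 1 lower, with a median of 0.6. Ckap2, Eda2r, a receptor of the TNF family, and the antiproliferative gene Btg2 rose by 2.51, 1.70 and 1.62, while Bbc3, which encodes the death-promoting protein PUMA, was lower (-0.31, adjusted p = 0.0235). The Bbc3 call was lost without WT replicate 1 (adjusted p = 0.12).

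The immediate early gene Atf3, which encodes a stress-induced transcription factor, rose by 1.82 ± 0.28, and Klf6 and Egr2 by 1.67 and 1.35. In all, 7 of 23 such genes were higher and none lower, with 5 to 7 higher when any one array was left out. The Sprr1a promoter is shown because it holds the AP-1 element (letters TGAGTCA), through which Jun and Atf3 proteins are known to act, more than once. It lies at chr3:92485832-92486131 on the minus strand (RefSeq, GRCm38.p6), with both AP-1 matches and the TATA box (letters TATAAA) in capitals.
Sprr1a: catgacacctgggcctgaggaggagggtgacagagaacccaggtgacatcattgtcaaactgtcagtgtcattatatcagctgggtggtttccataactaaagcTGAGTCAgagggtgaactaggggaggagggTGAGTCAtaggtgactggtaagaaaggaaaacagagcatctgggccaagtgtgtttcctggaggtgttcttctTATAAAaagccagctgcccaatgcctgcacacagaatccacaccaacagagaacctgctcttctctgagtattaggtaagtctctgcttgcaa
The AP-1 matches start at -146 and -116 relative to the gene start (-1 is the base just before it), and the first overlaps a match to the NRF2 element (letters TGACNNNGC). AP-1 matches were found in 7.43% of the higher core genes that have a window (66 of 888), against 5.39% of all genes with one. Genes can have several windows, on average 1.32 in the higher core genes and 1.23 over all genes, and a match in any of them counted. The κB site (letters GGGACTTTC or GGGAATTTC) was found in 1.13% of them (10 of 888), against 0.713%.

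Of 28 measured markers of monocytes and inflammatory macrophages 27 were higher and none lower, with a median difference of 1.13, and 26 or 27 were higher whichever array was left out. Clec7a, a receptor for fungal glucans, ranged between 7.45 and 8.61 (median 8.23) in Nemo-deficient livers, against 6.46, 6.11 and 5.90 in WT livers (2.02 ± 0.20, adjusted p = 7.91e-05, limma). Lgals3, galectin 3, ranged between 8.37 and 9.44 (median 9.13), against 7.39, 7.38 and 7.41 in WT livers (1.71 ± 0.19), and Ms4a7 rose by 1.88 ± 0.23. Of 18 genes of lipid-associated macrophages 15 were higher, with a median of 1.3. The fatty acid receptor Cd36, which hepatocytes and endothelial cells can also express, ranged between 10.32 and 10.83 in Nemo-deficient livers, against 8.51, 8.47 and 8.66 in WT livers (1.96 ± 0.10). Markers of resident Kupffer cells were mixed, with 5 of 16 higher and 1 lower: Cd5l (0.99), Marco (0.78), Spic (0.61), Il18bp (0.6) and Vsig4 (0.45) rose, while the haemoglobin scavenger receptor Cd163 fell by 1.02 ± 0.22 (adjusted p = 0.01, and 0.0566 without WT replicate 2).

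Genes of antigen presentation by MHC class II rose too. H2-Ab1 ranged between 9.76 and 11.19 (median 10.61) in Nemo-deficient livers, against 9.29, 9.06 and 9.12 in WT livers (1.44 ± 0.27, adjusted p = 0.00337, limma). In all, 8 of 10 class II genes were higher, with a median of 1.24. Genes of class I processing showed smaller changes: 7 of 16 were higher, with a median of 0.19, and none was a core gene. The peptide transporter Tap1 rose by 0.67 ± 0.13, and the class I count was 3 without WT replicate 2 and 4 without WT replicate 3. Of 33 interferon-stimulated genes 20 were higher and none lower, led by Usp18 (1.77 ± 0.12), a brake on interferon signalling, Ifi27l2a (1.4 ± 0.17) and Oasl2 (1.31 ± 0.14). The interferon count was 15 without WT replicate 3. The interferon-stimulated response element (ISRE, letters GAAANNGAA) was found in 14 of the 22 genes of this list that have a promoter window (63.6%), against 9.2% of all genes with one. Among the higher core genes with a window the share was 11%.

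Markers of other leukocytes changed less than those of monocytes and inflammatory macrophages. Over all genes 11.7% were higher. The share was 19% for T and NK cell, 7.69% for B and plasma cell and 5.56% for neutrophil markers. In all 8 Nemo-deficient arrays the mean of the T and NK list lay above every WT array (0.09 to 0.32 against -0.02 to 0.04, relative to the WT mean). The lymphocyte genes Nkg7 (0.92), Klrd1 (0.77), Cd3g (0.58) and Cd3e (0.38) were the 4 higher of 21 T and NK cell markers, a count that was 2 without WT replicate 1 and 1 without WT replicate 2 or WT replicate 3. Csf3r, the receptor for granulocyte colony-stimulating factor, was the 1 higher of 18 neutrophil markers (0.49), and Ly6g lay between 4.34 and 4.72 in all 11 arrays. The 1 higher of 13 B and plasma cell markers was Sdc1 (0.34), which hepatocytes also express and whose call was lost without any single WT array (adjusted p of up to 0.133, limma). Of 31 chemokine ligands and receptors 12 (38.7%) were higher and none lower, among them Cxcl14 (2.38), Ccl3 (1.53) and Ccl6 (1.26). Without WT replicate 3, 10 of the chemokine genes were higher and 2 lower. The erythroid genes Alas2 (-0.91) and Klf1 (-0.45) were the 2 lower of 7 measured, and the Klf1 call was lost without WT replicate 1 (adjusted p = 0.131).

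Genes of the extracellular matrix and of scar-forming cells rose. Of 35 extracellular matrix genes 29 were higher and none lower, with a median of 0.81 (0.95 without WT replicate 3) and 26 to 30 higher when any one array was left out. Tnc, tenascin C, ranged between 6.56 and 7.94 (median 7.58) in Nemo-deficient livers, against 4.93, 4.94 and 5.62 in WT livers (2.25 ± 0.28, adjusted p = 0.00028, limma). Lum, the collagen-binding proteoglycan lumican, rose by 2.11 ± 0.26 and Thbs1, thrombospondin 1, by 2.05 ± 0.24. Of 23 matrix proteases and inhibitors 15 were higher, among them the collagenase Mmp13 (2.11) and the inhibitor Timp1 (1.82). Of 18 markers of hepatic stellate cells 10 were higher, led by the growth factor receptor Pdgfrb (1.46 ± 0.16), the globin Cygb (1.39 ± 0.12) and Pdgfra (1.23 ± 0.15). Myofibroblast and TGF-β genes were higher in 18 of 25, and that count was 14 without WT replicate 1. The integrin Itgb2, a leukocyte adhesion receptor, rose by 1.29 ± 0.07, and Itga8, found on stellate cells, by 1.15 ± 0.20, within 12 of 20 integrins that were higher. Of 19 cholangiocyte and progenitor markers 12 were higher, with Bicc1 at 1.36 ± 0.19. That list held 7 calls without WT replicate 1.

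Cytoskeletal genes mostly showed modest changes. Of 47 actin cytoskeleton genes 34 were higher and none lower, with a median of 0.37, and 7 of the 34 were pooled-only genes. Rhoc, a small GTPase, and Tmsb4x, thymosin β4, rose by 1.28 and 1.18, and the scaffold Iqgap1 ranged between 8.06 and 8.47 in Nemo-deficient livers, against 7.28, 7.04 and 7.27 in WT livers (1.10 ± 0.08, adjusted p = 1.61e-05, limma). Arpc2, a subunit of the Arp2/3 complex, passed only on pooling. It ranged between 11.15 and 11.38 (median 11.31) in Nemo-deficient livers, against 11.09, 10.97 and 11.01 in WT livers (0.27 ± 0.06, adjusted p = 0.00811). In a list of 13 measured genes made of tubulins and the tubulin-binding stathmin gene Stmn1, 8 were higher, with Tubb6 at 2.13, Stmn1 at 2.12 and Tuba8 at 2.01, and Tuba4a was the 1 lower (-0.39, lost without WT replicate 1 or 2). The keratins of hepatocytes rose too, Krt8 by 1.16 ± 0.12 and Krt18 by 1.08 ± 0.15. The annexin Anxa2, a membrane-binding protein, ranged between 8.91 and 10.05 in Nemo-deficient livers, against 7.09, 7.18 and 7.52 in WT livers (2.40 ± 0.21).

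**Figure D3:**
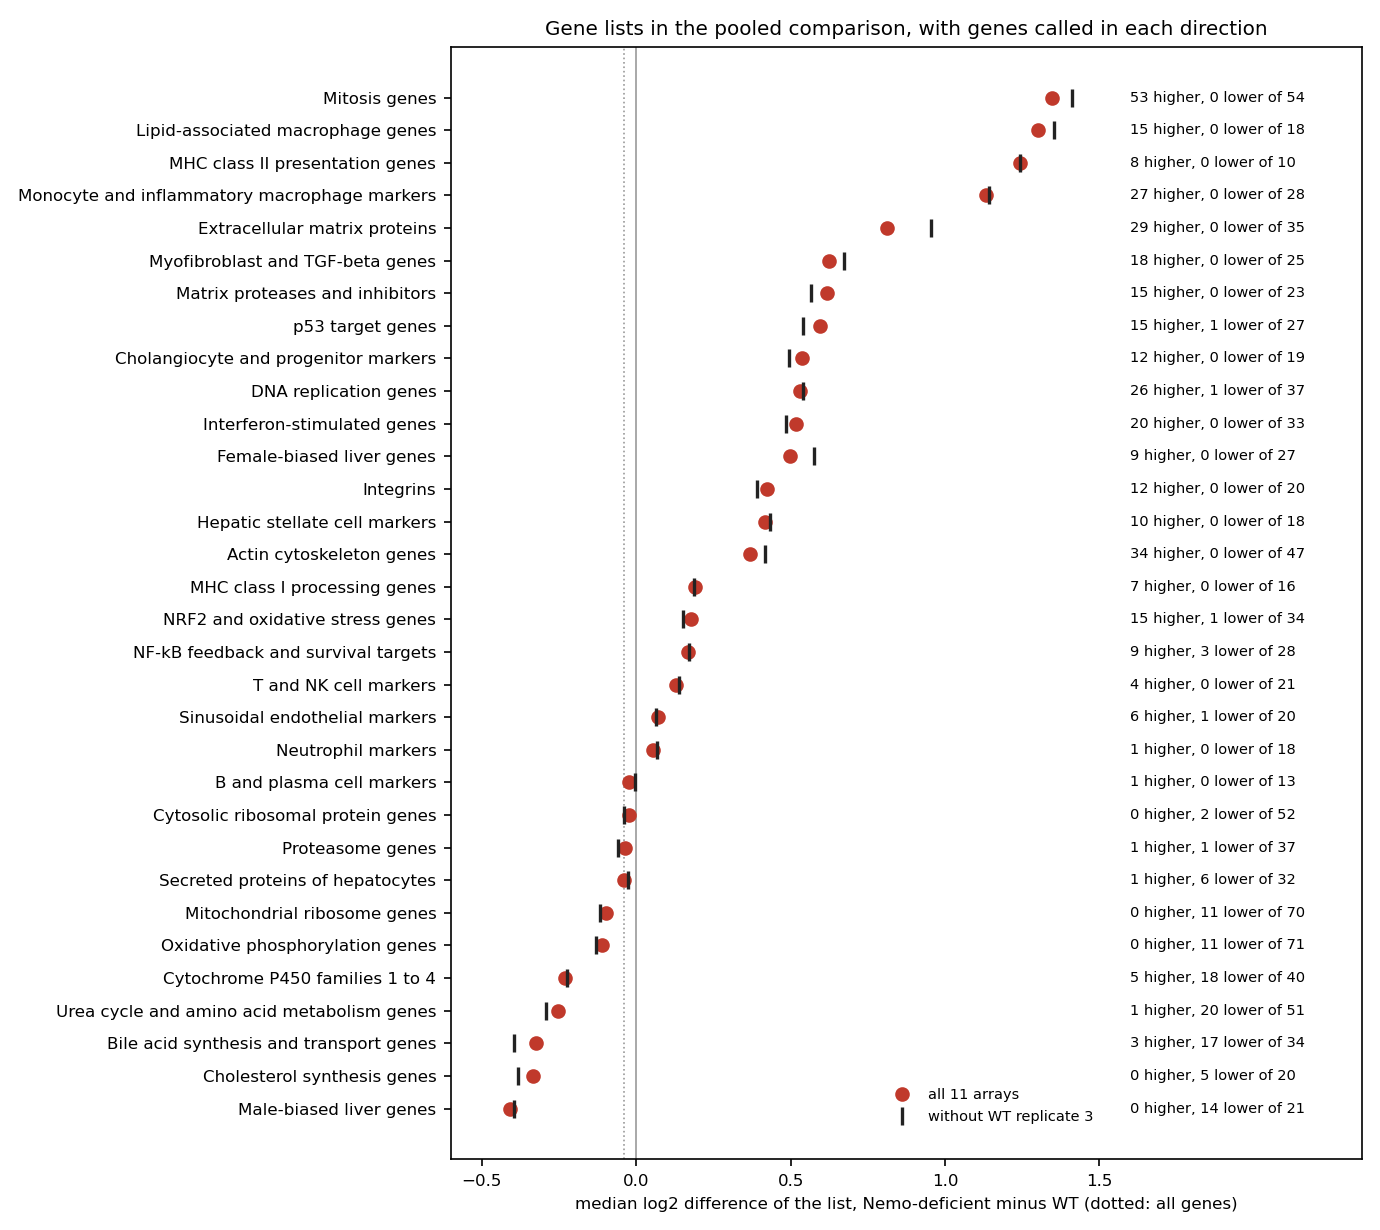
Median log2 difference, Nemo-deficient minus WT, of 32 gene lists over all 11 arrays (circles) and without WT replicate 3 (bars), with the number of genes called in each direction in the pooled comparison. Mitosis genes stand at 1.35 with 53 of 54 higher, and male-biased liver genes at -0.41 with 14 of 21 lower. The dotted line marks the median over all genes.

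Of 20 IκB kinase and NF-κB subunits and inhibitors 3 (15%) were called, against 19.7% of all genes, a share near the background. The 1 higher was the kinase Map3k14 that drives the alternative pathway (0.58 ± 0.08, adjusted p = 0.000676, limma), and the 2 lower were Ikbkg and the inhibitor Nfkbib (-0.17). The Nfkbib call was lost in 9 of 11 fits that left out an array, with an adjusted p of up to 0.141 (without WT replicate 2). Among 28 feedback and survival targets of NF-κB, 9 were higher and 3 lower. Vcam1, an adhesion molecule for leukocytes, ranged between 8.97 and 9.76 in Nemo-deficient livers, against 6.78, 7.32 and 6.83 in WT livers (2.38 ± 0.17, adjusted p = 1.14e-05), and the chemokine Ccl5 rose by 1.12 ± 0.16. The 3 lower targets changed less than 1.5-fold. Sod2, the mitochondrial superoxide dismutase, ranged between 11.21 and 11.58 (median 11.44), against 11.79, 11.72 and 11.70 in WT livers (-0.32 ± 0.07, adjusted p = 0.0102). The deubiquitinase Cyld, which restrains NF-κB signalling, fell by 0.28 ± 0.05, and Cflar, which encodes the caspase-8 inhibitor cFLIP, by 0.21 ± 0.05. The Cflar call was lost without WT replicate 2 (adjusted p = 0.0649) and the Sod2 call without WT replicate 1 (0.0514), and 1 of 3 probe sets of Cflar was called. The number of higher targets was 5 without WT replicate 1 and 6 without WT replicate 3.

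Of 19 TNF family death ligands and receptors 6 were higher and none lower, among them the TRAIL receptor Tnfrsf10b, which ranged between 7.50 and 8.11 in Nemo-deficient livers, against 6.18, 6.33 and 6.23 in WT livers (1.55 ± 0.15, adjusted p = 5.07e-05, limma), and Tnfrsf12a, the receptor for TWEAK (0.95 ± 0.13). Of 21 genes of the apoptosis and necroptosis machinery 7 were higher (5 without WT replicate 3) and 1 lower. The lower one was the initiator caspase gene Casp9 (-0.32 ± 0.08), whose call was lost without WT replicate 1 (adjusted p = 0.0763). The necroptosis executioner Mlkl ranged between 7.18 and 7.77, against 6.50, 6.06 and 5.93 in WT livers (1.28 ± 0.13), and Zbp1, a sensor of nucleic acids, rose by 0.98 ± 0.18. The BCL2 family moved both ways, with 6 of 15 higher and 3 lower. Its survival gene Bcl2 rose by 0.78 ± 0.10, and its death-promoting members Bak1 and Bcl2l11 rose by 0.48 and 0.50, while the death-promoting genes Bmf and Bik fell by 0.56 and 0.51.

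Genes of the differentiated hepatocyte were called lower more often than higher in several lists. Over all genes 11.7% were higher and 8% lower, 19.7% in all. The share called in either direction was near that for secreted proteins (21.9%) and transcription factors (25%). It was larger for coagulation (38.5%) and complement genes (45.8%). Secreted plasma proteins as a list hardly moved, with 1 of 32 higher, 6 lower (2 without WT replicate 1 or 2) and a median of -0.04, the same as over all genes. The 1 higher was the apolipoprotein Apoa4 (1.29 ± 0.16). Igfals, which stabilises circulating IGF, fell by 1.09 ± 0.12, and Itih1 by 0.46 ± 0.04. The transcription factor genes Nr0b2 (-1.08), Foxa1 (-0.62), Cebpa (-0.59), Foxa2 (-0.55) and Nr5a2 (-0.35) were the 5 lower of 24, and the acute-phase regulator Cebpb was the 1 higher (0.5, called in 3 of 11 fits that left out an array, with adjusted p = 0.202 without WT replicate 3, limma). The Cebpa call was lost without WT replicate 1 (adjusted p = 0.0586). Coagulation genes were lower in 8 of 26, led by F7 (-0.74 ± 0.08), and in 4 without WT replicate 1 and 5 without WT replicate 2. Of the complement genes C1qb (1.06), C1qc (1.04), C1qa (0.95) and Cfp (0.35), which macrophages and other leukocytes are known to make, were the 4 higher of 24, while C2 (-0.74), Mbl1 (-0.49) and 5 others were the 7 lower (4 without WT replicate 1 or 2).

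Of 21 measured male-biased liver genes 14 were lower and none higher, with a median of -0.41, and 9 to 15 were lower when any one array was left out, the fewest without WT replicate 1. The promoter of Hsd3b5, which fell most, is shown because it holds none of the elements searched, which besides those above were HNF4A (letters CAAAGTCCA), HNF1 (GTTAATNAT) and STAT5 (TTCCNGGAA) elements, found in at least 1 window of 0.565%, 0.803% and 1.43% of all genes that have one. It lies at chr3:98645485-98645784 on the minus strand (RefSeq, GRCm38.p6).
Hsd3b5: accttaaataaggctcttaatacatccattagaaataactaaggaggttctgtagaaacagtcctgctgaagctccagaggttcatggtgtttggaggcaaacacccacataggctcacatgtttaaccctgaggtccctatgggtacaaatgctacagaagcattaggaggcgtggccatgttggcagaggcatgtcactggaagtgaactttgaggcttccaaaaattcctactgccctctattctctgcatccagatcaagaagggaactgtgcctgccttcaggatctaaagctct
This says only that those letters are not in this window. Besides Hsd3b5, the fatty acid elongase Elovl3 and the oxysterol hydroxylase Cyp7b1 were lower by large but variable amounts (-2.09 ± 0.56 and -1.97 ± 0.51), and both calls were lost without WT replicate 3 (adjusted p = 0.0959 and 0.0824, limma) and without WT replicate 1, that of Elovl3 also without WT replicate 2. Of 27 female-biased genes 9 were higher and none lower, and 5 were higher without WT replicate 1. The neurotrophin receptor Ntrk2 ranged between 7.75 and 8.33 in Nemo-deficient livers, against 5.52, 5.67 and 5.82 in WT livers (2.42 ± 0.13, adjusted p = 3.03e-06). Cyp2b10 rose by 2.12 ± 0.37. The growth hormone receptor Ghr fell by 0.39 ± 0.07.

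Of 40 cytochrome P450 genes of families 1 to 4, 18 were lower and 5 higher in Nemo-deficient livers, with a median of -0.23. Their mean was 0.04. By array the mean of this list lay between -0.16 and 0.31 relative to the WT mean in Nemo-deficient livers, against -0.16 to 0.13 in WT livers, so the groups overlapped. Conjugation enzymes were lower in 7 of 42 and higher in 5, and without WT replicate 1 lower in 4 and higher in 2. With all arrays 28.6% of them were called in either direction, against 19.7% of all genes. Cyp2c37 ranged between 9.42 and 10.77 (median 9.86) in Nemo-deficient livers, against 11.68, 11.51 and 11.59 in WT livers (-1.67 ± 0.21), and Cyp2c54 and Cyp2u1 fell by 1.07 and 1.06. The 5 higher were Cyp2b9, Cyp2a22 (2.61), Cyp2b10 (2.12), Cyp1b1 (0.89) and Cyp4f18 (0.67), and the Cyp2b9 groups overlapped. The higher P450 count was 3 without WT replicate 1. The lower P450 count was 13, 15 and 13 without WT replicate 1, 2 and 3. Of 34 genes of bile acid synthesis and transport 17 were lower and 3 higher, with a median of -0.32, and 7 of the 20 called were pooled-only genes. The uptake carrier Slco1a1 ranged between 9.83 and 10.84 in Nemo-deficient livers, against 11.57, 11.70 and 11.82 in WT livers (-1.45 ± 0.17, adjusted p = 0.000218, limma). The export pumps Abcb1a and Abcb4 rose by 0.89 ± 0.11 and 0.78 ± 0.06 and were core genes, and the exporter Abcc4 was also higher (0.44, called in 7 of 11 fits that left out an array, with adjusted p = 0.121 without WT replicate 3). The number of lower bile acid genes was 8 without WT replicate 1, 9 without WT replicate 2 and 12 without WT replicate 3.

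Of 51 genes of the urea cycle and amino acid metabolism 20 were lower and 1 higher, with a median of -0.25, and 7 of the 21 were pooled-only. Hal, the first enzyme of histidine breakdown, fell by 0.79 ± 0.15, Shmt1 by 0.71 ± 0.13 and the glycine decarboxylase Gldc by 0.64 ± 0.08. The 1 higher was Acmsd (0.73), called in 3 of 11 fits that left out an array (adjusted p = 0.176 without WT replicate 3, limma). The number lower was 13 without WT replicate 1 and 12 without WT replicate 2, and it was 28 without Nemo/TNFR1 dKO replicate 1. All 20 cholesterol synthesis genes lay below WT, with a median of -0.33, but 5 passed and all of these were pooled-only: Mvd (-0.70), Msmo1 (-0.61), Insig1 (-0.61), Tm7sf2 (-0.57) and Stard4 (-0.53). That count was 0 without WT replicate 1, 1 without WT replicate 2, 3 without WT replicate 3 and 6 without Nemo/TNFR1 dKO replicate 1. Of 71 genes of oxidative phosphorylation 11 were lower and none higher, with a median of -0.11. Ndufb3, a subunit of respiratory complex I, fell by 0.45 ± 0.08. The share of oxidative phosphorylation genes that were lower (15.5%) stood beside a background of 8% lower over all genes. The count for oxidative phosphorylation was 6 without WT replicate 1, 7 without WT replicate 2 and 17 without Nemo/TNFR1 dKO replicate 1. Cytosolic ribosomal proteins (2 of 52 lower, Rps28 and Rpl27a) and proteasome subunits (1 of 37 higher, Psmd8, and 1 lower, Psmd12) lay below the background share. The Rpl27a call held in 4 and the Psmd12 call in 2 of 11 fits that left out an array.

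Genes of the NRF2 response and oxidative stress were higher in 15 of 34, a count that was 10 without WT replicate 1 or 3. The 1 lower was Sod2, and the lower count was 0 without WT replicate 1 and 2 without WT replicate 3. Srxn1, sulfiredoxin, ranged between 9.55 and 10.02 (median 9.73) in Nemo-deficient livers, against 8.47, 8.37 and 8.34 in WT livers (1.38 ± 0.10, adjusted p = 1.61e-05, limma). Gstm3, a glutathione transferase, ranged between 12.91 and 13.21, against 11.80, 11.92 and 11.81 in WT livers (1.26 ± 0.07). The metallothionein Mt2, which is not in that list, rose by 1.99 ± 0.39, and haem oxygenase Hmox1 rose by 1.10 ± 0.18. Acute-phase genes moved both ways, with 5 of 26 higher, led by Mt2, and 5 lower (3 without WT replicate 2). Saa3 was lower in all 8 livers and ranged between 4.72 and 4.99 in Nemo-deficient livers, against 5.92, 5.78 and 6.13 in WT livers (-1.08 ± 0.08), and Lbp fell by 0.82 ± 0.13. Of 23 IL-6 and STAT3 signalling genes 3 were higher and 2 lower, a share (21.7%) near the 19.7% called over all genes. Among its receptors Osmr rose by 0.93 ± 0.13 and Lifr fell by 0.89 ± 0.08, each a core gene.

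Of the 987 pooled-only genes under 1.5-fold, 20 were named by lowest adjusted p among those whose groups did not overlap. They are the firmest calls of that class and do not represent it. On the higher side Calu, a calcium-binding protein of the secretory pathway, ranged between 9.75 and 10.21 (median 10.12) in Nemo-deficient livers, against 9.67, 9.63 and 9.66 in WT livers (0.42 ± 0.09, adjusted p = 0.00708, limma). Slc12a4, a potassium-chloride cotransporter, ranged between 7.90 and 8.24, against 7.66, 7.78 and 7.66 (0.34 ± 0.07), and Panx1, a channel that releases ATP, between 6.36 and 6.53, against 6.17, 6.23 and 6.17 in WT livers (0.25 ± 0.05). In each the groups did not overlap, which the choice of these genes required. Nup205, a nuclear pore protein, Dck, a kinase of the nucleotide salvage pathway, Kcnip3, Morc4, Pofut2, Scml2 and Arpc2 had differences between 0.27 and 0.44. On the lower side Col18a1, the source of endostatin, ranged between 10.16 and 10.52 in Nemo-deficient livers, against 10.72, 10.67 and 10.54 in WT livers (-0.33 ± 0.07, adjusted p = 0.00832). Fgfr4, the receptor for the bile acid hormone FGF15, ranged between 9.34 and 9.57, against 9.66, 9.79 and 9.70 in WT livers (-0.28 ± 0.06), and Aldh6a1, an enzyme of valine breakdown, between 10.99 and 11.32, against 11.48, 11.47 and 11.43 (-0.31 ± 0.07). Cldn20, Sox6, Cgnl1, Cyp2j11, Camta2, Kcnj3 and Cntnap2 had differences between -0.53 and -0.24. All 20 were still called without WT replicate 3, against 452 of the 1033 pooled-only genes. Without WT replicate 2 that class kept 254 calls, and in a 4-group fit with equal weights of genotypes 592. Of the 20, Cntnap2, Fgfr4 and Sox6 were lost without WT replicate 2 (adjusted p = 0.0603, 0.0553 and 0.0509) and Pofut2 without WT replicate 1 (0.05).

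**Figure D4:**
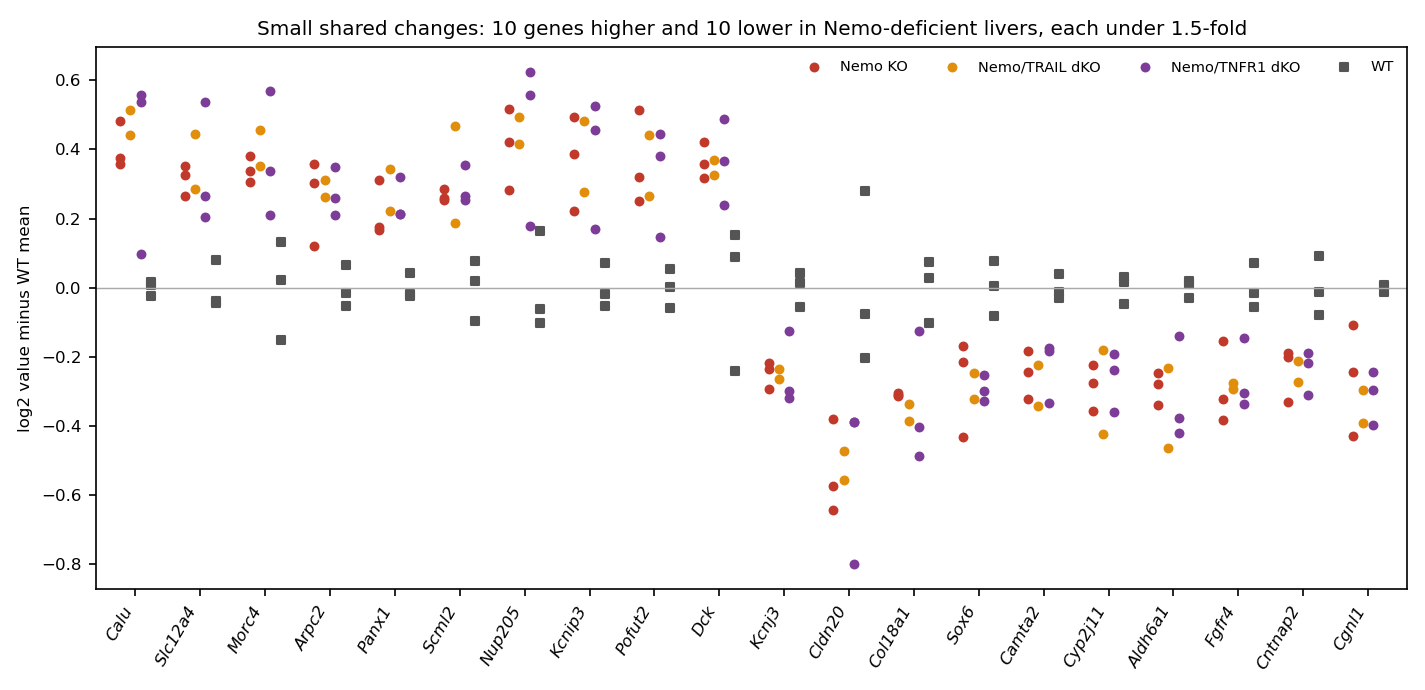
Log2 value minus the WT mean for 10 genes higher and 10 lower in Nemo-deficient livers, each changed less than 1.5-fold and called only on pooling. Each circle is 1 of the 8 Nemo-deficient arrays, coloured by genotype, and each square 1 of the 3 WT arrays. In each gene the circles and squares do not overlap, which the choice of genes required.

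A single liver stood nearest to WT within the group. In 780 of the 1535 core genes (50.8%) Nemo/TNFR1 dKO replicate 1 was the Nemo-deficient array closest to the WT mean, against 328 (21.4%) for Nemo KO replicate 1 and between 51 and 136 for each of the other 6. Its difference from WT was a median 0.773 of the mean of the other 7 arrays for core genes that were higher and 0.813 for those that were lower. By lists, the mean of the mitosis genes exceeded the WT mean by 1.12 in this liver, against 1.43 to 1.96 in the other 7 Nemo-deficient livers. For urea cycle and amino acid genes it lay at -0.03, within the WT range of -0.1 to 0.06, while the other 7 lay between -0.35 and -0.22. Cholesterol synthesis genes were at 0.04 in this liver, while the others ranged between -0.72 and -0.15, against -0.16 to 0.18 in WT arrays. The order was not the same for every list: its DNA replication genes (0.63) lay inside the range of the others, and its male-biased genes (-1.29) were the lowest of all. The 1535 core genes were all still called without this array, and the number of genes called was then 4316.

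**Figure D5:**
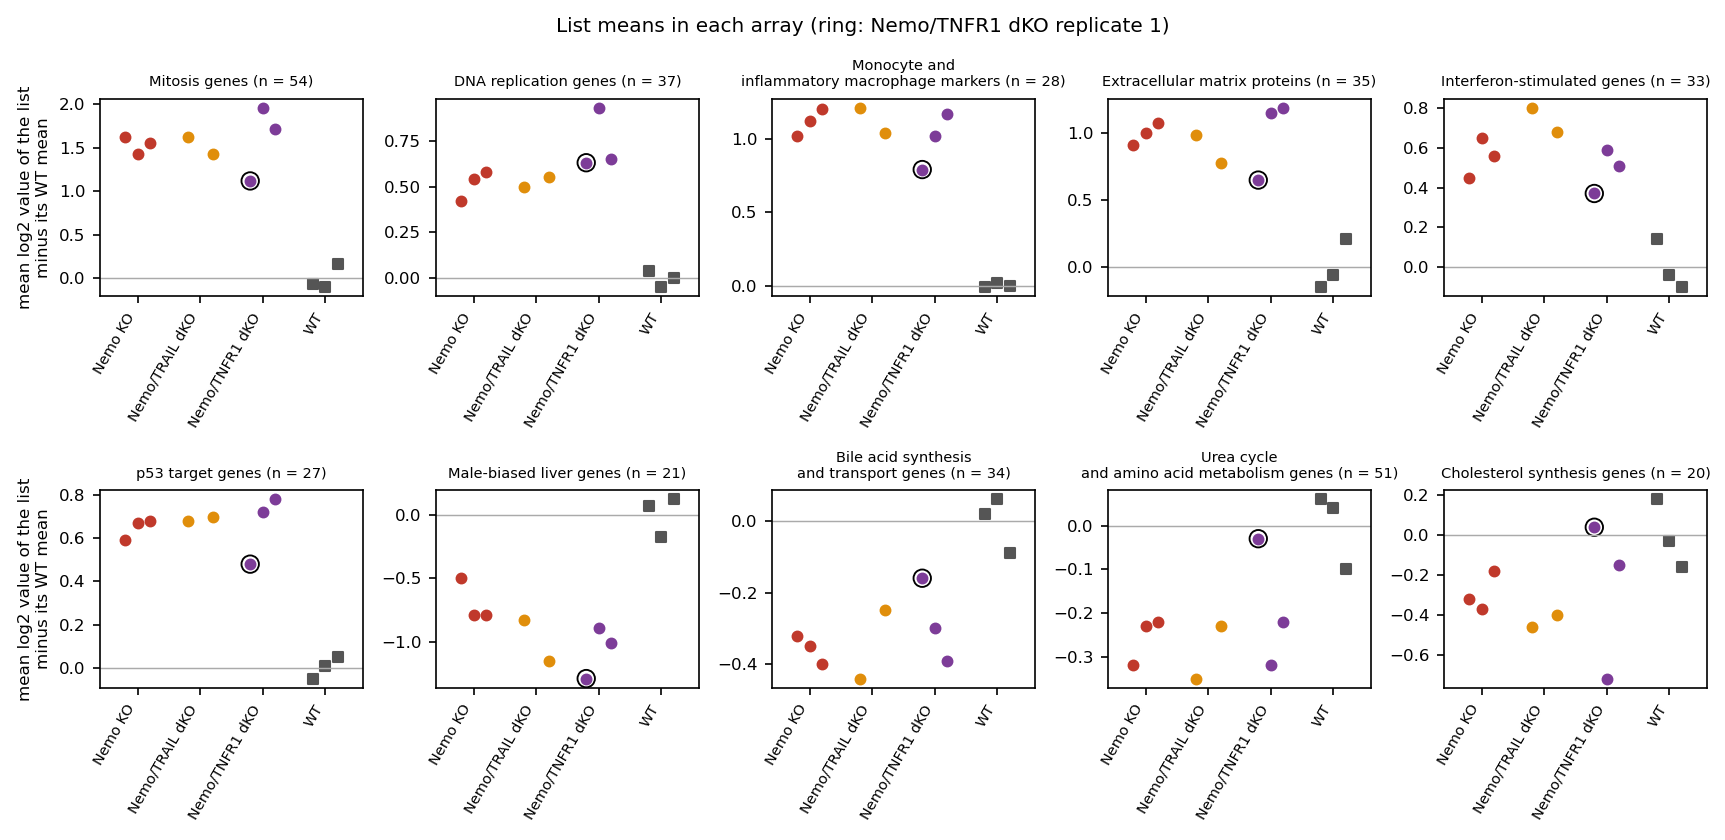
Mean log2 value of each of 10 gene lists in every array, minus its WT mean. Circles are Nemo-deficient arrays by genotype, squares WT arrays, and the ring marks Nemo/TNFR1 dKO replicate 1, which is nearest to WT in 8 of the panels and lies lowest for male-biased genes (-1.29).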

How the data were processed

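Total RNA of 11 mouse livers was hybridised to Affymetrix mouse gene arrays. The log2 expression values used here are those the authors deposited in the series matrix, made with RMA per the submitters' processing notes. The RMA version and a genome build are named in none of these sources, and array number and probe signal limit precision. Of 35556 probe sets, 21789 carried 1 gene symbol, 1621 several and 12146 none, and 21698 of those with 1 symbol matched RefSeq by Entrez ID. Genes are represented by the single-symbol probe set with the highest mean.

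From these values limma 3.58.1 (R 4.3.3) was fitted with 2 groups (8 Nemo-deficient arrays, 3 WT arrays) and, for single genotypes and the F test, with 4 groups. Every p was adjusted by Benjamini-Hochberg over all probe sets, and the call threshold was an adjusted p below 0.05. The procedure was tested on simulated data, with values drawn independently for each array. Those data held no effect of the array code, so that test cannot address one. The members and gene lists were chosen with earlier results of these data known. Genes named are the targeted genes, the 12 core genes in each direction, with groups that do not overlap, with the largest smallest-genotype difference, 5 core genes of at least 2-fold in each direction with the steadiest differences, 10 pooled-only genes in each direction under 1.5-fold, with groups that do not overlap, with the lowest adjusted p, the 6 lowest of the F test, and up to 3 called members of each list in each direction. Further members of counts of 5 or fewer, the markers that check the tissue, Cks2 and the promoters shown were chosen after their values were seen.

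Same-numbered replicates did not deviate together (r between -0.117 and 0.044 in 15 pairs, none over 0.1), so the numbers served only as names. Alternatives were each array left out, the replicate number as a block, the array code or genotype as a random block, the shared array code alone, a 4-group fit, other moderation, array weights, quantile normalization, median centring, filters on dim probe sets and other thresholds. Leaving out whole genotypes was added after seeing the data. Promoter windows came from RefSeq (GRCm38.p6), and 15563 of 19856 genes had one. Members of large families (cytochrome P450, Mup, carboxylesterase and glutathione transferase genes) are similar in sequence, and cross-hybridisation was not tested.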

Additional observations from a re-analysis of the deposited data

Results flagged for a closer look

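Among the 8 Nemo-deficient arrays, 1 array lay far from the other 7 in 13 of 195 genes examined for it, where chance alone gives about 1 in 20 groups. In Nemo/TNFR1 dKO replicate 1, Calu was at 9.75 (10.01 to 10.21 in the other 7 arrays), Cebpa at 10.49 (9.74 to 10.04), Cxcl14 at 7.39 (8.83 to 9.85) and Cyp2c37 at 10.77 (9.42 to 10). The same array had F7 at 9.87 (9.49 to 9.65), Hmmr at 5.57 (6.37 to 6.89), Ms4a7 at 5.66 (6.27 to 6.76) and Plk1 at 7.75 (8.37 to 8.92). In Nemo/TNFR1 dKO replicate 3, Ccl5 was at 8.78 (7.89 to 8.3) and Nkg7 at 7.12 (6.18 to 6.62). Abcc4 reached 7.81 in Nemo/TRAIL dKO replicate 2 (7.16 to 7.33), Bcl2l11 6.71 in Nemo/TRAIL dKO replicate 1 (7.01 to 7.25), and Lgals3 8.37 in Nemo KO replicate 1 (8.95 to 9.44).

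The 6 genes that differed among the Nemo-deficient genotypes in the moderated F test of limma were Gfra2 (adjusted p = 0.000839), Orm2 (0.0187), Cyp2c39 (0.0346), Trem2 (0.038), Clec2h (0.038) and Alad (0.0397). Clec2h was at 5.79, 5.36 and 5.0 in Nemo/TNFR1 dKO livers and between 6.98 and 7.65 in the other Nemo-deficient livers, against 8.8, 8.06 and 8.49 in WT livers. Alad was at 12.39, 12.52 and 12.55 in Nemo/TNFR1 dKO livers and between 11.72 and 11.93 in the others, against 11.9, 11.78 and 11.76 in WT livers.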

How the results depend on the processing

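Counts here are of probe sets; the main values were 5369 pooled, 1921 core and 1539 pooled-only calls, 3304 calls of Nemo KO, 2684 of Nemo/TRAIL dKO and 3263 of Nemo/TNFR1 dKO, each against WT, and 17 differences among the Nemo-deficient genotypes. Leaving out any one array gave 3841 to 5952 pooled, 687 to 2090 core and 1079 to 1913 pooled-only calls, and 11 to 18 differences among genotypes. The single comparisons gave 1933 to 3549 (Nemo KO), 823 to 2884 (Nemo/TRAIL dKO) and 1926 to 3342 calls (Nemo/TNFR1 dKO), with the fewest Nemo/TRAIL dKO and core calls without Nemo/TRAIL dKO replicate 1. Within the shared array code, Nemo KO against WT gave 2790 calls, and the pooled comparison without the Nemo KO genotype gave 3490. With a fold of at least 1.5 there were 1780 pooled, 1047 core and 124 pooled-only calls, and 1680, 1617 and 1625 in the single comparisons in the order above. With an adjusted p below 0.01 there were 2746 pooled and 788 core calls, 1416, 1018 and 1411 in the single comparisons, and 11 among genotypes. Pooled-only calls numbered 925 in a 4-group fit with equal weights and 902 with weights by number of arrays. With genotype as a random block, where the estimated correlation within blocks was negative (-0.0729), they numbered 2761. They numbered 928 above the median signal and 955 among probe sets with 1 gene symbol, where 8 differed among genotypes. The cause of these shifts was not tested, beyond the fewer arrays or probe sets and the stricter thresholds some settings impose. With the replicate number as a block, there were 5003 pooled, 1611 core and 1774 pooled-only calls, 2781, 2261 and 2771 in the single comparisons and 14 among genotypes, each within 1.5 times the main count. Of 311 named genes 303 were called, 215 of these in all 11 fits that left out 1 array, and 0 reversed in any alternative run. With 3 WT arrays and 2 Nemo/TRAIL dKO arrays, the number of arrays limits the precision.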

Other observations

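The lysosomal proteases legumain (Lgmn) and cathepsin S (Ctss) rose by 0.88 ± 0.07 and 1.44 ± 0.12, and Hexa, a subunit of hexosaminidase, by 0.91 ± 0.08 (SE). Of 32 lysosomal genes 14 were higher (11 without WT replicate 3) and 1 lower. Of 28 lipid uptake and droplet genes 8 were higher (6 without WT replicate 3) and 1 lower. Of 26 fatty acid synthesis genes 4 were higher and 5 lower. The share called in either direction was 46.9% for lysosomal, 32.1% for lipid uptake and droplet and 34.6% for fatty acid synthesis genes. It was 19.7% over all genes. For fatty acid synthesis the higher count was 1 without WT replicate 2 or 3. The lower count was 2 without WT replicate 1 and 3 without WT replicate 3. Lipoprotein lipase (Lpl) ranged between 9.67 and 10.23 (median 10.01) in Nemo-deficient livers, against 8.55, 7.79 and 8.48 in WT livers, while the hormone-sensitive lipase Lipe fell by 0.52 ± 0.08. The desaturase Scd2 ranged between 9.01 and 10.56 (median 10.29), against 7.68, 7.87 and 7.73 in WT livers, and Mlxipl, which encodes the carbohydrate-sensing factor ChREBP, fell by 0.75 ± 0.12. Hexokinase 2 (Hk2) rose by 0.58 ± 0.08 and pyruvate dehydrogenase kinase 1 (Pdk1) fell by 0.75 ± 0.12. None of these groups overlapped.

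Of 18 YAP target genes 8 were higher and 1 lower, among them Ccn2 (1.46 ± 0.26) and Ajuba (0.85 ± 0.15). Of 19 circadian clock genes 3 were higher and 2 lower, near the background of 11.7% and 8% over all genes. Per1 ranged between 8.62 and 9.25 (median 9.04) in Nemo-deficient livers, against 7.65, 8.38 and 7.63 in WT livers, and Cry1 between 6.37 and 6.93 (median 6.84), against 7.4, 7.35 and 7.43 in WT livers. The hour of tissue collection was not analysed here.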
